A study of Mus musculus with 6 samples.

Results

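miR-126 is a microRNA (miRNA) of endothelial cells, the cells that line blood vessels and, in liver, the sinusoids. Its hairpin lies in an intron of Egfl7, a gene for a protein secreted by endothelium, and both arms of the hairpin give a mature miRNA. The 3p arm is known to repress Spred1 and Pik3r2, which restrain signaling from vascular endothelial growth factor, and Vcam1, an adhesion molecule for leukocytes. The 5p arm is known to repress Dlk1 in endothelium, where it favors cell division.

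The members were all mouse miRNAs on the array whose name is miR-126 or miR-126a with an arm, and 2 met this rule, miR-126-3p and miR-126-5p, with 80 of the 49880 miRNA spots on each array. No miRNA named miR-126b was on the array. Both arms were flagged as detected on all 6 arrays, as were 166 miRNAs in all. The arms were measured in total liver RNA of male C57BL/6 mice, 3 treated with carbon tetrachloride (CCl4) and 3 given corn oil. CCl4 is a solvent toxic to hepatocytes and was injected into the peritoneum at 0.6 mL/kg with corn oil as the vehicle, while controls had an equal volume of the vehicle. The mice were 7 weeks old at the start, and injections went on for 10 weeks at 2 a week. Each RNA was labeled with Cy3 and hybridized to 1 array, and all arrays lay on 1 slide, with the groups in different rows, so that treatment and row cannot be told apart. Replicates are separate livers, and their number, 3 a group, limits the precision of every value.

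The array's name miR-126-3p was matched to Mir126a, for which mmu-mir-126 is listed as an older name. The sequence of the 3p arm is shown because its seed defines the targets it can pair with. Capitals mark the seed, bases 2 to 8, in the mature miRNA and the whole 3p arm in the hairpin. Sequences and positions are those of RefSeq for build GRCm38.p6, where the hairpin is at chr2:26591357-26591429 and the 3p arm at chr2:26591402-26591423, both on the plus strand within the span of Egfl7 on the same strand.
miR-126a-3p: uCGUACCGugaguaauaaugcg
Mir126a hairpin: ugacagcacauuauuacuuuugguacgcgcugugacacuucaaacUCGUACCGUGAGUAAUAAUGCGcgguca
Among 1679 mature mouse miRNAs of the same table, 0 others had this seed, so miR-126-3p stands alone in its seed group within that set. The set is not complete, since it held no mature entry for miR-126-5p. The arm is 22 bases long and fills positions 46 to 67 of the 73 bases of the hairpin. The opposite arm is miR-126-5p.

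CCl4 array 3 stood apart from the rest, and the changes of the arms and their ratio are therefore given with and without it. It detected 334 miRNAs, against 227 and 245 on the other CCl4 arrays and 186 to 193 on the corn oil arrays. The scanner software summed the spots of this array with an effective feature size fraction of 0.818, measured on the array, whereas the other 5 arrays took the default of 0.6. This scales every total signal of CCl4 array 3 by 1.36-fold, which normalization between arrays removes. Of the 166 miRNAs, 140 had a higher total signal there than the mean (log2) of the other CCl4 arrays. The median over all 166 was 2.56-fold.

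Before normalization both arms gave higher signals in all CCl4-treated livers than in all corn oil-treated livers. The total signal of miR-126-3p was 646, 553 and 665 with corn oil and 806, 808 and 3675 with CCl4. The total signal of miR-126-5p was 12.0, 10.4 and 12.8 with corn oil and 17.8, 13.0 and 57.3 with CCl4. In both arms CCl4 array 3 was far above the other 2, and the groups did not overlap. Such a pattern was common, since 63.3% of the 166 miRNAs were higher without overlap on the CCl4 arrays before normalization. Without normalization the change, CCl4 over corn oil, was 1.11 on the log2 scale for miR-126-3p and 1.02 for miR-126-5p, beside a median of 0.99 over the 166 miRNAs. Without CCl4 array 3 it was 0.38 for each arm, and the median was 0.45. In total signal the rise of both arms was thus close to that of the typical miRNA on the same arrays. The totals of miR-126-5p did not hold the same probes on all arrays, as described below. Its 2 probes taken singly rose less than its total, by 0.80 and 0.72, or by 0.20 and 0.21 without CCl4 array 3.

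**Figure D1:**
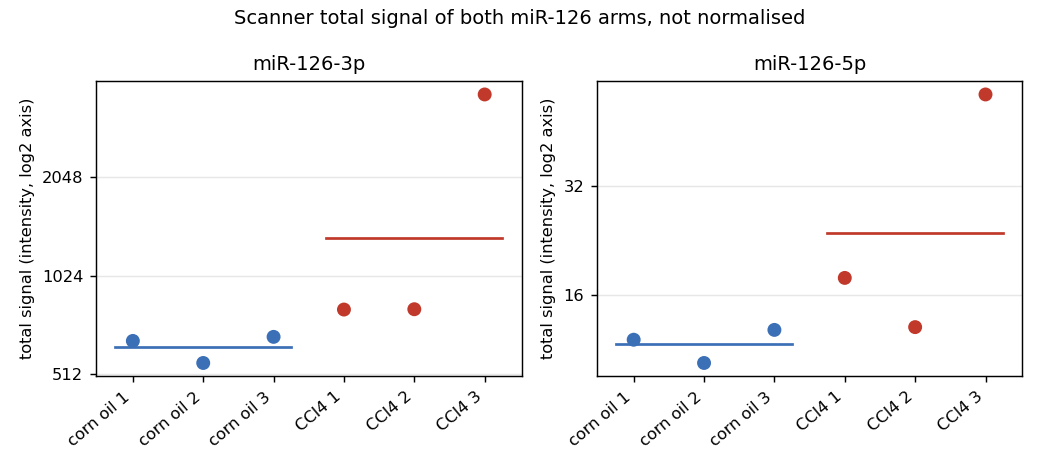
Total signal of miR-126-3p (left) and miR-126-5p (right) on each array, in intensity units on a log2 axis and not normalized between arrays. Points are single livers and lines are means of the log2 signals of a group. The CCl4 points lie above the corn oil points in both panels, with CCl4 array 3 at 3675 and 57.3.

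To ask whether either arm changed with CCl4 treatment relative to the other miRNAs, the total signals of the 166 miRNAs were quantile normalized as log2 values, and limma was used for the fit. A call needed an adjusted p (Benjamini-Hochberg) under 0.05 together with more than a 2-fold change. Neither arm was called, while 12% of the 166 miRNAs were, and 7.23% were called higher with CCl4. The normalized log2 signal of miR-126-3p was 9.78, 9.69 and 9.69 with corn oil and 9.69, 9.91 and 10.51 with CCl4, so that the groups overlapped. Groups without overlap were seen for 39.2% of the 166 miRNAs on this scale. miR-126-3p changed by 0.32 (standard error 0.24, 95% interval -0.29 to 0.92, limma adjusted p = 0.43). The group means were 9.72 ± 0.05 with corn oil and 10.04 ± 0.43 with CCl4 (SD, n = 3 each). The difference was smaller than the SD of the CCl4 group, which came mainly from array 3. In rank by total signal among the 166 miRNAs, miR-126-3p was 18th, 19th and 19th from the top on the corn oil arrays and 19th, 17th and 10th on the CCl4 arrays.

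The normalized log2 signal of miR-126-5p was 4.26, 3.89 and 4.14 with corn oil and 3.86, 3.81 and 4.47 with CCl4. The CCl4 values enclosed the corn oil values, with 2 livers below them and 1 above them. The change was -0.06 (standard error 0.23, 95% interval -0.64 to 0.53, limma adjusted p = 0.91). The group means were 4.10 ± 0.19 with corn oil and 4.04 ± 0.37 with CCl4 (SD, n = 3 each). In this fit the intervals of both arms exclude a 2-fold change in either direction, but this did not hold in all fits. For miR-126-3p the upper limit was 1.06 with the replicate number as a block, and 1.14 without corn oil replicate 1. Those intervals include a 2-fold rise. With quantiles taken over all miRNAs before the detection filter, the change of miR-126-5p was -0.60 (95% interval -1.01 to -0.18, adjusted p = 0.086), and that interval includes a 2-fold fall.

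Without CCl4 array 3 the fit covered 170 miRNAs, of which 16.5% were called, and again neither arm was. miR-126-3p then changed by 0.09 (95% interval -0.17 to 0.35, limma adjusted p = 0.49) and miR-126-5p by -0.28 (95% interval -0.57 to 0.02, adjusted p = 0.10). The sign for miR-126-3p rested on the scaling. With scaling by the 75th percentile of each array the change was -0.04 (adjusted p = 0.94), and with that scaling and without CCl4 array 3 it was -0.28 (adjusted p = 0.096). No direction can therefore be given for the 3p arm.

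**Figure D2:**
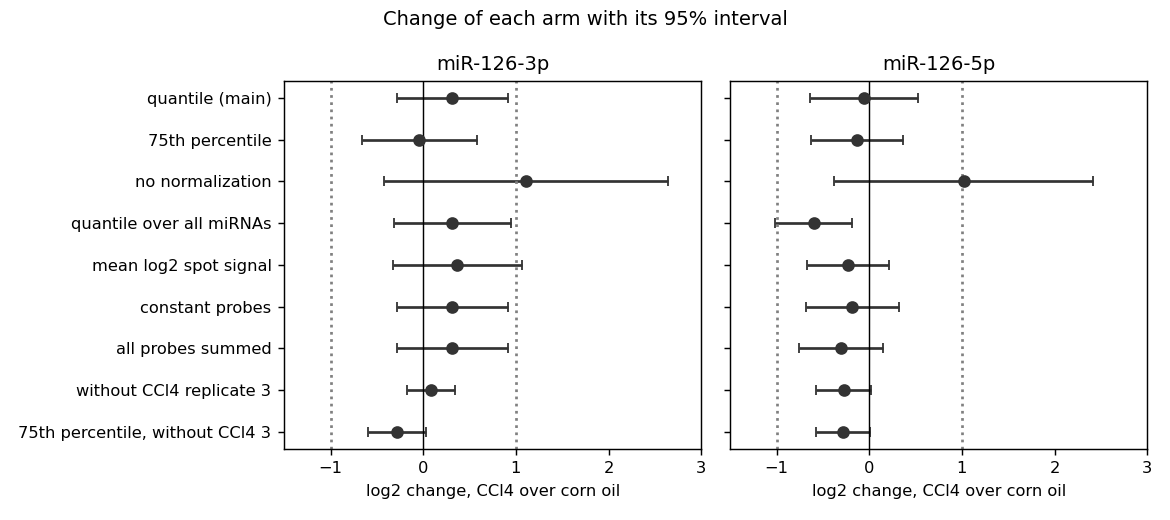
Log2 change of miR-126-3p (left) and miR-126-5p (right), CCl4 over corn oil, with its 95% interval from limma, under the main normalization and 8 alternatives. The solid line marks no change and the dotted lines a 2-fold change. No setting shown reached the call, and the intervals are widest without normalization.

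The total signal of a miRNA is a sum over its probes, and for miR-126-5p the sum did not hold the same probes on all arrays. Each arm was read by 2 probes with 20 spots each. On all arrays, the totals equaled the sum of those probes whose signal exceeded 3 times their own error. Both probes of miR-126-3p passed this limit everywhere, and 100% of their spots were well above background. The first probe of miR-126-5p (A_54_P1035) also passed everywhere, with signals of 12.0, 10.4 and 12.8 with corn oil and 13.8, 13.0 and 47.2 with CCl4. The second probe (A_54_P4367) had signals of 2.81, 3.04 and 3.17 with corn oil and 4.05, 2.97 and 10.1 with CCl4. Its signal was 2.34, 2.50 and 2.50 times its error on the corn oil arrays, so it was left out there, and 3.17, 2.30 and 4.88 times on the CCl4 arrays, so it was counted on arrays 1 and 3. Few of its spots, no more than 5%, stood well above background on 5 arrays, against 55% on CCl4 array 3. The total of 17.8 for CCl4 liver 1 thus holds a second probe that the totals of the corn oil livers do not hold. The set of probes counted differed between arrays for 31 of the 166 miRNAs, or 18.7%.

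**Figure D3:**
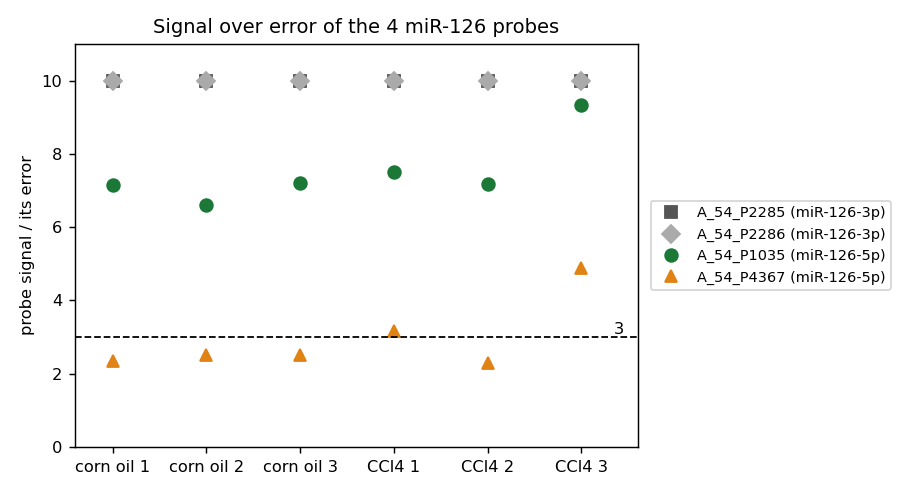
Signal of each of the 4 miR-126 probes divided by its error, by array. The dashed line at 3 is the limit above which the probe was counted in the total. The second probe of miR-126-5p (triangles) lies above it only on CCl4 arrays 1 and 3.

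The fit was repeated with the same probes on all arrays, and neither arm was called. The first probe alone gave miR-126-5p a change of -0.18 (95% interval -0.69 to 0.32, limma adjusted p = 0.55), and both probes summed on all arrays gave -0.30 (adjusted p = 0.30). The change of miR-126-3p remained 0.32 in both cases. Without CCl4 array 3 the first probe alone gave miR-126-5p -0.36 (95% interval -0.72 to -0.00093, adjusted p = 0.088). Both probes summed gave -0.46 there (95% interval -0.56 to -0.36, adjusted p = 0.0026), under the 2-fold limit of a call, in a fit where 50.6% of the miRNAs had an adjusted p under 0.05 and the median change was -0.09. The dim second probe, mostly not well above background, enters that sum. miR-126-3p was at 0.09 in both.

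Because both arms are cut from the same hairpin, the ratio of their signals within an array asks whether they changed alike, and a scale factor of the array cancels in it. From the totals, log2 of 3p over 5p was 5.75, 5.74 and 5.70 with corn oil and 5.50, 5.96 and 6.00 with CCl4. CCl4 array 1 lay below the corn oil arrays and the other 2 lay above them. The mean changed by 0.09 (n = 3 livers each, two-sided exact permutation test p = 0.5), less than the SD of 0.28 in the CCl4 group. The change was -0.00093 without CCl4 array 3, and without CCl4 array 1 it was 0.25 and the groups did not overlap. The ratio is a change in relative signal and gives no amount of one arm against the other, since the probes differ.

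With constant probes the ratio was higher in all CCl4-treated livers. It was 5.75, 5.74 and 5.70 with corn oil and 5.87, 5.96 and 6.28 with CCl4. The groups did not overlap, and the mean changed by 0.31 (n = 3 livers each, two-sided exact permutation test p = 0.1, the smallest that 3 livers against 3 allow, so that 0.05 cannot be reached). The SD was 0.03 for corn oil and 0.22 for CCl4. Without CCl4 array 3 the change was 0.19, and with any 1 array left out it lay between 0.19 and 0.39 without overlap. This setting was chosen after the probe values had been seen.

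Other ways to sum the spots gave higher mean ratios with CCl4, but not always without overlap. From the mean log2 spot signal over both probes of an arm the change was 0.22 with overlap (n = 3 livers each, two-sided exact permutation test p = 0.4), and 0.06 without CCl4 array 3. With all probes summed the ratio was 5.44, 5.37 and 5.38 with corn oil and 5.50, 5.66 and 6.00 with CCl4, a change of 0.32 without overlap, or 0.18 without CCl4 array 3. The first 5p probe against each 3p probe gave changes of 0.29 and 0.32 without overlap, and 0.17 and 0.20 without CCl4 array 3. The dim second 5p probe gave 0.37 and 0.40, with groups that overlapped, and 0.16 and 0.19 without CCl4 array 3. The 2 probes of miR-126-3p changed against each other by 0.03, also without overlap.

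The level of the background was set beside the 5p signal. The median spot signal of the first 5p probe was 37.2 to 45.4 with corn oil and 47.9, 48.2 and 123 with CCl4, while negative control spots averaged 3.09 to 4.70 over the 6 arrays. With that average subtracted on each array, the ratio changed by 0.24 and the groups still did not overlap. It changed by 0.14 without CCl4 array 3. Any remaining departure from a linear signal at this brightness was not tested.

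**Figure D4:**
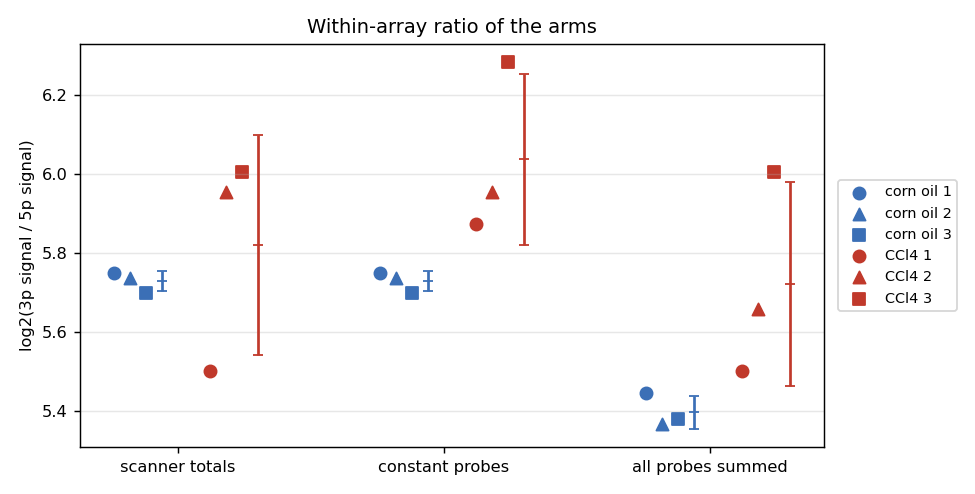
Log2 ratio of the miR-126-3p signal to the miR-126-5p signal within each array, from the scanner totals, from constant probes and from all probes summed. Points are single livers, and bars beside them give the mean and SD of the group (n = 3). With the totals CCl4 liver 1 lies at 5.50, below the corn oil livers, and with constant probes all CCl4 livers lie above them, from 5.87 to 6.28.

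The same ratio was computed for the other hairpins with both arms detected on all arrays, of which there were 9. From the totals, 20% of the 10 ratios, miR-126 included, did not overlap between the groups, and with constant probes 40% did not, 30% being higher in the CCl4 group. The change of miR-126 with constant probes was exceeded in size by 2 of the 9 others, whose median absolute change was 0.09. From the totals the largest rises were 2.14 for miR-652 and 0.35 for miR-378a, and the largest falls were -0.98 for miR-1839 and -0.26 for miR-21a. With constant probes these were 1.92, 0.09, -0.63 and -0.06. With CCl4 array 3 left out, miR-652 was at 1.19 and miR-1839 at -0.57 from the totals, and at 0.98 and -0.34 with constant probes. In that case 40% of the 10 ratios with constant probes did not overlap, and 3 of the 9 others exceeded miR-126 in size. A ratio without overlap was thus not particular to miR-126.

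**Figure D5:**
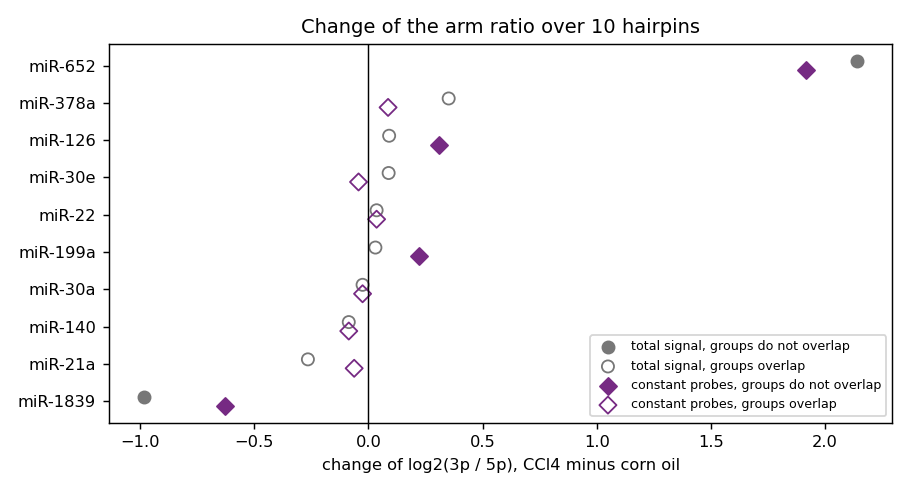
Change of the log2 ratio of 3p to 5p, CCl4 minus corn oil, for the 10 hairpins with both arms detected on all arrays. Circles are from scanner totals and diamonds from constant probes, and filled symbols are hairpins whose groups do not overlap. miR-126 moves from 0.09 with overlap to 0.31 without, and miR-652 and miR-1839 do not overlap in either case.

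On CCl4 array 3 both arms stood further above the other CCl4 arrays than most miRNAs did. miR-126-3p was 4.55-fold and miR-126-5p 3.76-fold above the mean of the other CCl4 arrays in total signal, a larger difference than for 72.9% and 65.1% of the 166 miRNAs. Marker miRNAs of other cell types moved on the same array. The 4 hepatocyte miRNAs, led by miR-122-5p, summed to between 18908 and 20803 on the corn oil arrays, to 14923 and 17695 on CCl4 arrays 1 and 2, and to 2750 on array 3. All of them were detected on all arrays. The red cell miRNAs miR-451a and miR-144-3p, the 2 of 3 found on the array, summed to between 466 and 754 with corn oil and to 730, 315 and 2135 with CCl4. Neither hepatocyte nor red cell miRNAs were called, with or without CCl4 array 3, beside 8 of 166 and 13 of 170 miRNAs called lower. The hepatocyte miRNAs changed by -1.26 to -1.98 with all arrays (limma adjusted p = 0.23 to 0.47). Without CCl4 array 3, miR-122-5p had the same normalized mean in both groups, so no call was possible for it. There miR-192-5p, miR-194-5p and miR-148a-3p were at -0.48, -0.71 and -0.57 (limma adjusted p = 0.022, 0.12 and 0.046), under the 2-fold limit. In that fit 52.4% of the miRNAs had an adjusted p under 0.05.

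The summed total signals of leukocyte and of mesenchymal miRNAs were higher on all CCl4 arrays. They are not normalized, and 63.3% of the 166 miRNAs were higher without overlap on that scale. The 6 leukocyte miRNAs, such as miR-223-3p of myeloid cells, summed to between 77.7 and 91.0 with corn oil and to 475, 346 and 457 with CCl4. Of these, 3 were tested and 0 called, beside 7.23% of the 166 miRNAs called higher. The fit without CCl4 array 3 called miR-223-3p higher (1.77, limma adjusted p = 0.0018), beside 8.82% of 170 miRNAs. miR-150-5p and miR-155-5p were not detected on any corn oil array, and miR-155-5p was detected on CCl4 array 1 alone. The mesenchymal miRNAs, of which 5 of 6 were found on the array, summed to between 67.2 and 109 with corn oil and to 632, 255 and 1189 with CCl4, and 2 of the 4 tested were called higher, miR-199a-5p and miR-199b-5p, beside 7.23% of all. Both were also called without CCl4 array 3, and with 75th percentile scaling miR-199a-3p was called too (1.51, limma adjusted p = 0.034), beside 6.63% of all called higher there. The epithelial miRNAs summed to between 10.4 and 48.8 with corn oil and to 139, 25.1 and 16.9 with CCl4, with miR-200c-3p and miR-141-3p not detected on any array. The part of these cell types in the signals of miR-126 was not tested. In whole liver, the number of endothelial cells and the amount of miR-126 per cell cannot be told apart, and the arrays hold no protein-coding endothelial markers.

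The miRNAs most like miR-126-3p over the 6 arrays were taken by the root mean square difference of their normalized log2 signals, each set relative to its own mean. They were miR-5100 (0.12), let-7d-5p (0.13), miR-29a-3p (0.14), miR-331-3p (0.16) and miR-26a-5p (0.17), against a median of 0.53 over the 165 others. All 5, like both arms of miR-126, had their highest normalized signal on CCl4 array 3. miR-126-5p came 10th in this order, at 0.22. The order rested on that array, since without it these 5 lay between the 4th and the 33rd place and miR-126-5p was 51st. The order was taken on quantile-normalized signals alone. There miR-5100 and miR-29a-3p each kept the same value on all arrays but CCl4 array 3. With scaling by the 75th percentile, the change was -0.97 for miR-5100, beside -0.04 for miR-126-3p. The other named miRNAs were at -0.0040, -0.21, 0.07 and -0.14 there, in the order given. Likeness under that scaling was not tested. The root mean square difference was applied to the 5p arm after the values of the 3p arm had been seen. The miRNAs most like miR-126-5p were miR-140-5p (0.08), miR-185-5p (0.11), let-7g-5p (0.13), miR-331-3p (0.14) and let-7f-5p (0.15). Without CCl4 array 3 they came 1st, 6th, 15th, 16th and 14th.

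A list of 29 other miRNAs known to act in vessels or in endothelial growth was set beside the miR-126 arms. Of these, 19 were detected on all arrays and tested, 1 was called higher and 0 lower, beside 7.23% called higher over all miRNAs. A change above 0 was seen in 9 of the 19 and in 69 of all 166. Their median change was -0.0040, beside -0.14 over all 166 miRNAs. The called member was miR-34a-5p, which acts with p53 in cell aging and rose by 1.71 (limma adjusted p = 0.026). The other large changes were not called. They were 1.75 for miR-322-5p, known for a role under low oxygen, where the SD among CCl4-treated livers was 1.46, and 1.26 and 0.97 for miR-27a-3p and miR-23a-3p, which are made from a common transcript. Without CCl4 array 3 they were at 0.90, 0.86 and 0.48 (limma adjusted p = 0.016, 0.0028 and 0.046), under the 2-fold limit, in a fit where 52.4% of the miRNAs had an adjusted p under 0.05. There miR-34a-5p was at 1.50 (adjusted p = 0.024), and the median of the list was -0.06.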

How the data were processed

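Total liver RNA, 100 ng per mouse, was measured on 1-color miRNA arrays. Per the submitters' processing notes, the authors used Agilent Feature Extraction 11.0.1.1 on the scans. Its total, probe and spot signals were deposited as linear intensities from which background had been taken, with no scaling across arrays. The deposited value table holds intensities that the authors quantile normalized, used here for miR-126-3p and the count of calls. The flags in the scanner output were used as deposited, as other values of 0 or 1. The file headers name build mm9, and no coordinates of the files were used.

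Control spots were left out. The methods of the paper name a filter on detection in all samples, quantile normalization and limma, without the order of log and quantile steps. Here miRNAs flagged as detected on all 6 arrays were log2 transformed and then quantile normalized. For miR-126-3p the deposited values gave the same means as quantile normalization before the log. A linear model with treatment alone was then fitted in limma 3.58.1 (lmFit, eBayes), run under R 4.3.3. The fit was also run on simulated data with the spread of the corn oil arrays and CCl4 arrays 1 and 2. That simulation held no array like CCl4 array 3 and does not cover its spread. Constant probes are those above 3 times their error on all arrays used. The normexp alternative added an offset of 50 to the spot signals, so a scale factor of the array does not cancel in its ratio. Ratios and exact tests used scipy 1.17.1, pandas 2.3.3 and numpy 2.4.6, and plots matplotlib 3.10.9, under Python 3.11.15. Alternatives covered normalization, filter, signal per miRNA, moderation, the authors' own values, a replicate block and each array left out.

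The members, the lists of vascular and cell type miRNAs and the rules for naming miRNAs (the 5 most alike, the called and the 4 most changed of the vascular list, the 2 hairpins with the largest change each way) were chosen with earlier results of these data known.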

Additional observations from a re-analysis of the deposited data

How the results depend on the processing

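Neither arm was called under any alternative run, with adjusted p between 0.082 and 0.94 for miR-126-3p and between 0.0026 and 0.98 for miR-126-5p, for which the deposited values were not analysed here. miR-126-3p turned negative with scaling to the 75th percentile (-0.04), and with that scaling and without CCl4 array 3 (-0.28, with constant probes also -0.28). miR-126-5p turned positive without normalization (1.02, and 0.87 with each array divided by its feature size fraction). With 1 array left out the changes lay between 0.09 and 0.50 for miR-126-3p and between -0.28 and 0.07 for miR-126-5p, positive without corn oil replicate 1 (0.02), CCl4 replicate 1 (0.03) or CCl4 replicate 2 (0.07). The change of miR-126-5p was -0.60 with quantiles over all miRNAs or no detection filter and -0.41 with detection in at least 1 group. Its adjusted p was under 0.05 in fits without CCl4 array 3 with all probes summed (-0.46, adjusted p = 0.0026) and with constant probes and the 75th percentile (-0.47, adjusted p = 0.012), where 50.6% and 67.1% of the miRNAs were under 0.05 and the median changes were -0.09 and -0.25. With 1 array left out the arm ratio from the totals changed by -0.00093 (without CCl4 replicate 3) to 0.25 (without CCl4 replicate 1). From the quantile-normalized totals, which hold unequal 5p probes, it changed by 0.37. That setting was not run without CCl4 array 3. With normexp it changed by 0.70, CCl4 array 3 being at 5.19 and the others at 3.96 and 4.01. The causes were not tested. The joint settings, constant probes, all probes summed, division by the feature size fraction, normexp on median spot signals (offset 50) and subtraction of the negative controls were chosen after the data were seen.

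Over all miRNAs the count of calls was 20. It was 32 when detection throughout at least 1 group sufficed, 6 without a detection filter, 13 from the mean log2 spot signal, 12 from the deposited values and 4 with normexp. These fits tested unequal numbers of miRNAs, so these counts are not shares. The share with a limma adjusted p under 0.05 was 13.3% in the main fit. In the order just named it was 16.7%, 0.481%, 9.04%, 12.6% and 10.8%. With 1 array left out the count of calls was between 5 and 28. It was 7, 7 and 6 without corn oil replicate 1, 2 or 3, and 5 or 28 without CCl4 replicate 1 or 3.

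With the replicate number as a block the count was 6, and the changes were 0.32 for miR-126-3p (adjusted p = 0.48), -0.06 for miR-126-5p (adjusted p = 0.90) and 0.09 for the ratio. Deviations of same-numbered arrays correlated by -0.18, 0.11 and 0.03, and those of unlike numbers by -0.27 to 0.24. These values show no pairing by number, but so few livers cannot decide it. Normexp on mean spot signals was not run, since the files used hold median spot signals.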
